A study of Mus musculus with 4 samples.

Results

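The accessible regions of 10 genes that regulate or mark blood stem and progenitor cells (Runx1, Meis1, Mecom, Hlf, Erg, Etv6, Spi1, Flt3, Cd34 and Myct1) were followed in mouse fetal liver at embryonic day 14.5. A peak belonged to a gene when its summit lay in the gene body, or within 100 kb of the gene with no boundary of another protein-coding gene nearer. By this rule 88 of 55290 merged regions belonged to the 10 genes, with 75 and 43 peaks in the 2 wild-type (WT) libraries and 51 and 69 in the 2 libraries from Hemgn knockout (Hemgn KO) mice. Of the 10 genes, 9 had at least 1 region and Myct1 had 0. The deleted gene, Hemgn, makes the nuclear protein hemogen in blood-forming cells, and the labels do not name the kind of allele. Each library was made by Omni-ATAC, in which a transposase cuts accessible DNA, from about 50000 fetal liver cells, with no sort named in the labels. Whether replicates are different embryos is not in the labels, and p-values then measure only the spread between these libraries, which may be technical.

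Fetal liver at this stage is mostly maturing red cells, and stem and multipotent progenitor cells are a small part of it. The transcription factors among these genes work as a network: RUNX1, ERG and other factors bind together at enhancers of blood genes, MEIS1 partners homeobox proteins, and MECOM and HLF mark cells with stem cell activity. PU.1, the product of Spi1, directs cells toward myeloid and B lymphoid fates and is shut down as red cells mature. In a bulk sample, fewer cells of a type and less accessible DNA per cell cannot be told apart.

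The libraries differed in depth. List lengths were 47858 and 34181 peaks for WT replicates 1 and 2 and 35426 and 43018 peaks for KO replicates 1 and 2. The background recovered from the deposited values was 5.67, 2.29, 2.49 and 3.8 fragments in the same order, so WT replicate 1 and Hemgn KO replicate 2 were the deeper libraries. The weakest listed peaks had 15, 9, 9 and 12 fragments at the summit. Each peak is given below by the percentile of its fold enrichment within its own list, a rank from 0 to 100, since fold is set against the background of 1 library. In every pair of values the replicates stand in the order 1, 2. Peaks at listed starts of erythroid marker genes were found at 10, 10, 9 and 10 of 10 genes in the 4 libraries in the same order. Hemgn itself had a start peak in all 4 libraries, with 6, 5, 6 and 6 peaks assigned to it; without the place of the deletion this does not check the genotype labels.

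The sequences upstream of 5 transcription starts are shown because they set starts with a peak beside a start without one, that of Myct1. The distal Mecom start and the inner Erg starts, also without a summit within 1 kb, are not shown. They are the 250 bases before a listed start in RefSeq's GRCm38.p6 table, on the strand of the gene, with capitals for 4 kinds of motif letters, searched on both strands. The GATA letters were AGATAA and also AGATAG, and with another first base TGATAA and also TGATAG. The RUNX letters were TGTGGT and the variant TGCGGT, the ETS letters were GGAAGT, and the E-box letters were CAGCTG and the variant CAGATG. The distal Runx1 start (chr16:92826075-92826324, minus strand) and the proximal Runx1 start (chr16:92697330-92697579, minus strand) come before those of Flt3 (chr5:147400490-147400739, minus strand), Cd34 (chr1:194938571-194938820, plus strand) and Myct1 (chr10:5593478-5593727, plus strand).
Runx1 distal: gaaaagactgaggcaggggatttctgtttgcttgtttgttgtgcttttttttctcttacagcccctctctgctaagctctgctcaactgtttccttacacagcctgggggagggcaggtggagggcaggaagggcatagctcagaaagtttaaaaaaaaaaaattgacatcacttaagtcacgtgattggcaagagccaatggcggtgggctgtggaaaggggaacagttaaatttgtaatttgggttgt
Runx1 proximal: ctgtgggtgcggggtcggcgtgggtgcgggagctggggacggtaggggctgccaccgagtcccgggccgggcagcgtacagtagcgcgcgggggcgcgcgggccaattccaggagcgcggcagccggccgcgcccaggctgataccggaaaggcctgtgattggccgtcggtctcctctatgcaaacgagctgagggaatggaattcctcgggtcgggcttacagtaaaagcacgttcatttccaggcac
Flt3: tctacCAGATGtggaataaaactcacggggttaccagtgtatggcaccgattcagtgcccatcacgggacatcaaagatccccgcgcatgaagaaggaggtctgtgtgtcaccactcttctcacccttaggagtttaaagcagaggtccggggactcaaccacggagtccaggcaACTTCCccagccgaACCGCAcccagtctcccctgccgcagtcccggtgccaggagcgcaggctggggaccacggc
Cd34: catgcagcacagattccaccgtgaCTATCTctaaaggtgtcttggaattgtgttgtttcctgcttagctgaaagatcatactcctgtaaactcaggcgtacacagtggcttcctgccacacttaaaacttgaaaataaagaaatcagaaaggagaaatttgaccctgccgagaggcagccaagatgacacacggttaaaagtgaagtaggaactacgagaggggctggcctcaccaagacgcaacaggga
Myct1: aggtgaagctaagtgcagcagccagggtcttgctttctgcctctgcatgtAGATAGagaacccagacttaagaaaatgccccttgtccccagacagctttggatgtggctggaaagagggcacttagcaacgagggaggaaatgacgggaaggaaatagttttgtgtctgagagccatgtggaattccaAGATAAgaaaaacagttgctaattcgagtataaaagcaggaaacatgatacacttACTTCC

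The table listed 13 starts for 9 of the 10 genes, with none for Spi1. The distal Runx1 sequence had 2 CpG dinucleotides in its 250 bases and the proximal 27, and both starts had a summit within 1 kb in all 4 libraries. Over 21263 listed starts of protein-coding genes, the median was 17.0 CpG at starts with a summit within 1 kb in all 4 libraries and 2.0 at starts with none. Myct1, with 3 CpG and no peak, lay near the latter value, as did the inner Erg starts with 2 and 3. The distal Mecom start had 14 CpG and no summit within 1 kb. The Myct1 sequence held 2 GATA matches and 1 ETS match, and both Runx1 sequences held 0 matches of all 4 kinds. Among the 13 starts, 5 held GATA letters, 2 RUNX, 3 ETS and 2 E-box letters, and over all starts the shares were 23.6%, 17.7%, 20.4% and 23.0%. A match is a run of letters and not a shown binding site, and no match says only that these letters are not in this window.

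A summit within 1 kb of a listed start (of either gene end for Spi1) was found in all 4 libraries at 7 of 10 genes, against 58.2% of 21774 protein-coding genes under the same rule. With either gene end in place of the listed start for every gene, the count was 6 of 10, against 55.4%. The exceptions were Cd34, which lacked it in WT replicate 2, Erg, whose summit in Hemgn KO replicate 2 stood 1.24 kb from the start, and Myct1. Regions at starts were held in all 4 libraries in 10 of 11 cases, and regions elsewhere in 26 of 77, where all regions had 86.2% at starts and 37.2% elsewhere. No start peak of the 10 genes was found in both libraries of 1 genotype and neither of the other, a pattern of 0.23% (WT) and 0.289% (KO) of all genes.

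**Figure D1:**
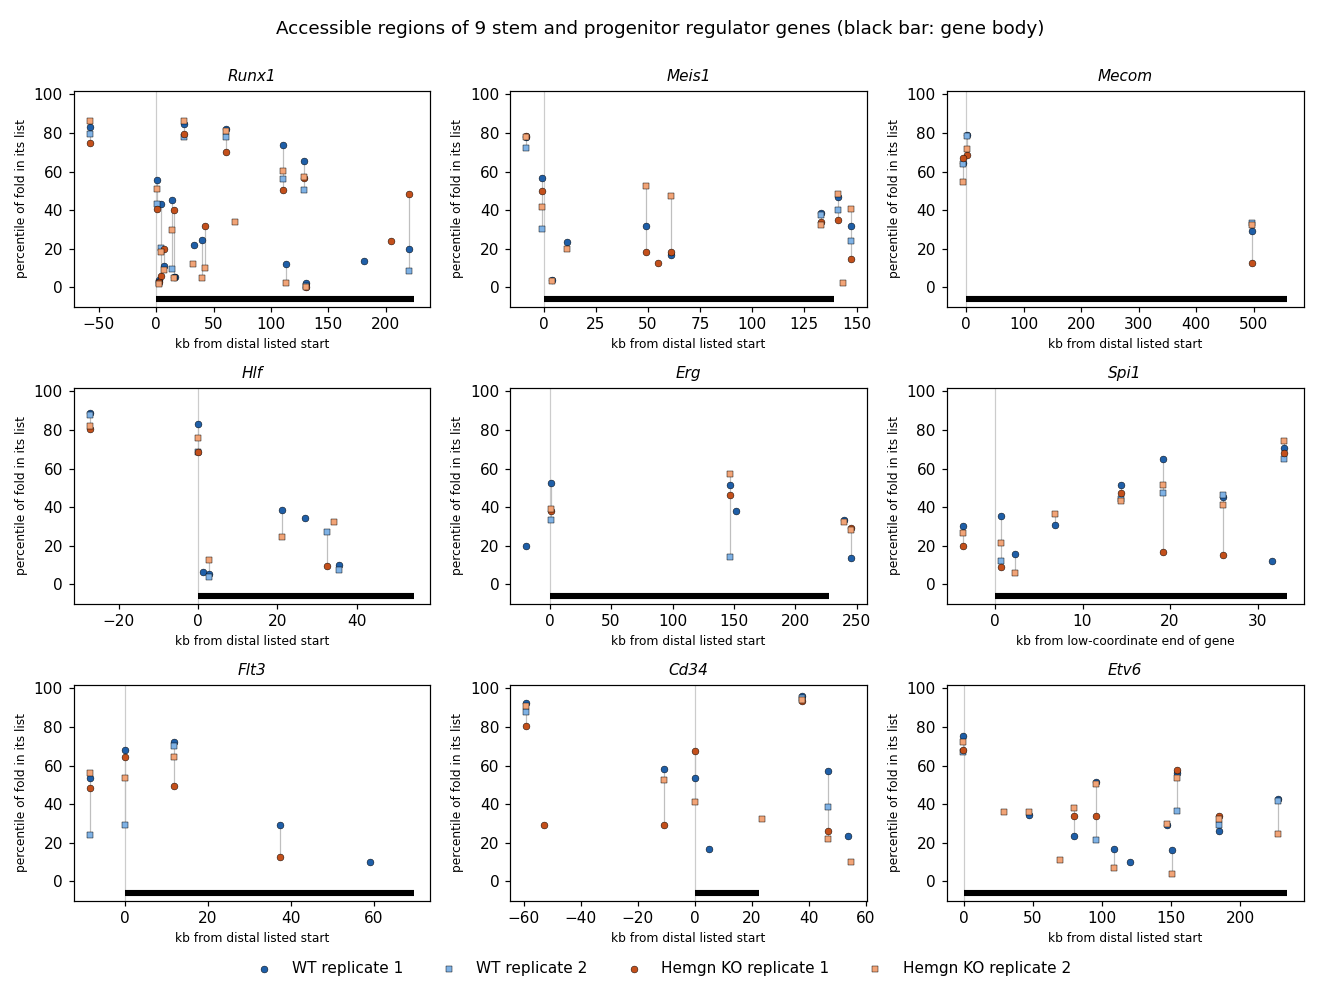
Each panel places the regions of 1 gene by distance from its distal listed start in kb (for Spi1, from the low-coordinate end of the gene) on the x axis and by percentile of fold within its list on the y axis; blue symbols are WT and orange symbols Hemgn KO libraries, a grey line joins the libraries of a region, and the black bar is the gene body. By mean percentile, the highest regions of Runx1, Meis1, Mecom, Hlf, Erg, Flt3 and Cd34 had summits over 1 kb from a listed start. They reached percentiles of 93.6 to 96.0 at Cd34, and at Erg the mean was close to that near the start (42.4 and 40.8). The highest region lay at the start of Etv6 and at a gene end of Spi1.

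Runx1 encodes the DNA-binding subunit of core-binding factor, which is needed for the emergence of definitive blood stem cells. Its 22 regions were the most of any of the 10 genes, at the 99.5 percentile of all protein-coding genes, over a gene body of 225 kb. Per 100 kb of the sequence assigned to it, Runx1 had 6.2 regions, against a median of 3.12 and an upper quartile of 8.33 over all genes. This density was at the 66.8 percentile of all genes. The region at the distal start (chromosome 16, 92824819 to 92826339) had percentiles of 55.4 and 43.0 in WT and 40.7 and 51.2 in KO. The proximal one (92696764 to 92699054) had 65.3 and 50.4 in WT, and 56.9 and 57.3 in KO. The genotypes overlapped at both starts, and the deeper library of each genotype had the higher value at the distal start.

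The highest Runx1 region lay inside the gene, 24.29 kb downstream of the distal start (92800928 to 92802400), in the stretch between the promoters where a blood stem cell enhancer of Runx1 is known. It stood at 84.9 and 77.9 in WT, with 79.6 and 86.0 in KO, so the genotypes overlapped. A region upstream, at -57.91 kb from the distal start (92883502 to 92884420) had 83.1 and 79.5 in WT and 75.0 and 86.0 in KO. Its 4 summits lay within 7 bp of each other. Another region in the body, 61.13 kb from the distal start (92764497 to 92765275), had 82.2 and 77.9 in WT and 70.1 and 81.1 in KO. These 3 regions formed the upper layer of the locus, above both promoters in every library.

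Below this layer, Runx1 had many weak regions that came and went between libraries. Of its 22 regions, 9 were found in all 4 libraries and 6 in a single library. The KO-only region of the gene, and of all 10 genes, lay 42.27 kb downstream of the distal start (92783682 to 92784293). Its percentiles were 31.8 and 9.83 in the KO libraries, from 19 and 21 fragments at the summit. The nearest WT peaks were 1.64 and 16.8 kb away. A region 3.8 kb downstream of the distal start (92821893 to 92822686) had 43.4 and 20.5 in WT and 5.75 and 18.1 in KO, with no overlap of the genotypes, a difference of KO minus WT means of -20.0 percentile points. The KO replicates were 12.3 points apart there and the WT replicates 22.9, so the difference was no larger than the WT spread.

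A low percentile was not always a low signal. At a region 1.62 kb downstream of the proximal Runx1 start (92695468 to 92695906), the summits held 182, 87, 88 and 122 fragments, yet the percentiles were 2.17, 0.43, 0.0339 and 0.284. Both KO values lay below both WT values at this region, by a gap of 0.146 points. The background used there was 78.5, 41.1, 51.7 and 65.8 fragments, far over the library background, beside the strong peak of the promoter. Percentiles of fold thus rank a peak against its surroundings, and this side region of a promoter stood low. Whether side regions of other promoters stand low was not tested.

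Meis1 encodes a homeodomain partner of HOX proteins that maintains stem cells and is high in megakaryocytes. Of its 11 regions, 5 were found in all 4 libraries. The start region (chromosome 11, 19018721 to 19020953) had 56.5 and 30.1 in WT and 49.9 and 41.4 in KO. A region upstream, at -8.26 kb from the start (19026522 to 19027760) was higher in every library, with 78.0 and 72.4 in WT and 78.3 and 77.9 in KO. WT replicate 2 was the lowest library at both. Beyond the opposite end of the gene, a region (18876576 to 18878217) had 46.8 and 40.1 in WT and 35.1 and 48.4 in KO. A region in the body, 133.03 kb downstream of the start (18885776 to 18886130), had 38.7 and 37.7 in WT and 33.9 and 32.1 in KO, with no overlap and a KO minus WT difference of -5.19 points. Inside the gene, 2 regions had peaks in WT replicate 1 and Hemgn KO replicate 2 only, at 11.0 and 4.09 kb from the start.

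Mecom encodes a zinc finger factor made in a long form from a distal start (MDS1-EVI1) and a short form from an inner start (EVI1). It had the fewest regions among the 9 genes with peaks, 3 over a gene body of 558 kb, and all 3 were found in every library. Its 0.427 regions per 100 kb were the lowest density of the 9. The region 1.29 kb inside the distal start (chromosome 3, 30507725 to 30509244) had 79.0 and 78.2 in WT and 68.8 and 71.5 in KO, with no overlap and a difference of -8.51 points. The WT replicates differed by 0.798 points there and the KO replicates by 2.75. The region at -5.45 kb, upstream of the distal start (30514394 to 30515504) had 64.6 and 63.8 in WT and 67.0 and 54.4 in KO. The inner start had a weaker peak (30012881 to 30013346), with 29.1 and 33.5 in WT and 12.5 and 32.1 in KO, from 11 to 24 fragments. This region lay 496.78 kb from the distal start, and between it and the region near the distal start no other peak was assigned to Mecom in any library.

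Hlf encodes a bZIP factor of the PAR family whose transcript marks stem cells. It had 9 regions, of which 2 were found in all 4 libraries. The start region (chromosome 11, 90390601 to 90391195) had 83.1 and 68.7 in WT and 68.4 and 76.0 in KO. The highest Hlf region lay upstream, at -27.22 kb from the start (90417730 to 90418542), with 88.9 and 87.6 in WT and 80.3 and 81.9 in KO. There the genotypes did not overlap, and the difference of -7.19 points was larger than the 1.29 points between WT replicates and the 1.62 between KO replicates. The WT-only region of the 10 genes lay inside Hlf, 35.49 kb downstream of the start (90355259 to 90355606). It had 10.1 and 7.3 in the WT libraries, from 18 and 10 fragments, where the weakest listed peaks of those libraries had 15 and 9. The nearest KO peaks were 2.54 and 0.988 kb away.

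Erg and Etv6 encode ETS family factors, ERG an activator needed to maintain stem cells and present in endothelium, ETV6 a repressor needed for adult stem cells and platelets. Erg had 6 regions, 2 of them in all 4 libraries. Near its distal start (chromosome 16, 95585299 to 95585931) the WT libraries had 52.4 and 33.5 and the KO libraries 38.2 and 39.1. The inner Erg starts had no peak within 1 kb, and the other shared region, 19.6 kb downstream of the innermost start (95438978 to 95440135), had 51.7 and 14.4 in WT and 46.3 and 57.0 in KO. WT replicate 2 stood apart at this region, with 12 fragments at its summit. Etv6 had 13 regions, 4 of them in all 4 libraries, and its start region (chromosome 6, 134034889 to 134036306) had 75.2 and 66.9 in WT and 67.9 and 72.3 in KO. Of the 4 summits in that region, 1 had Etv6 as nearest boundary and 3 had the predicted gene Gm46977. In the Etv6 body, a region 154.26 kb from the start (134189619 to 134190131) had 56.0 and 36.2 in WT and 57.9 and 53.5 in KO. A region 184.66 kb from the start (134220211 to 134220711) had 26.2 and 29.0 in WT and 33.9 and 32.1 in KO. This was the only shared region of the 10 genes with both KO libraries above both WT libraries, by 5.38 points between the means. Another 4 Etv6 regions had peaks in WT replicate 1 and Hemgn KO replicate 2 only, all in the gene body.

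**Figure D2:**
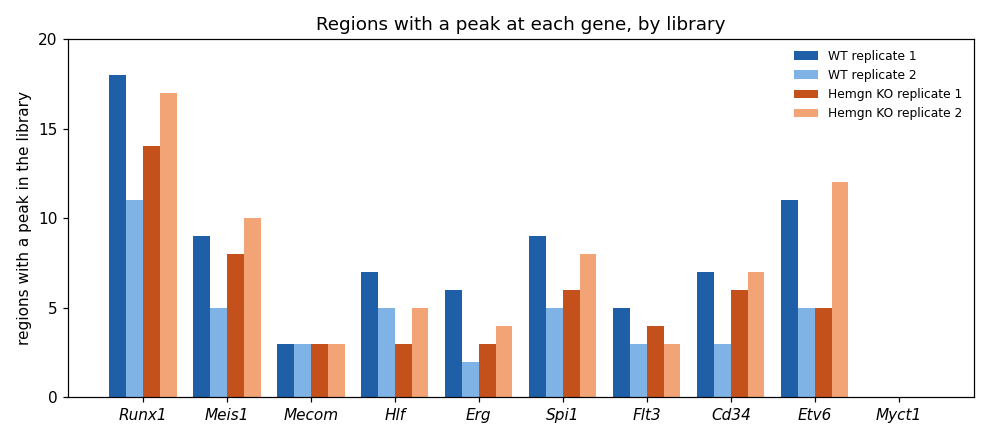
Bars give, for each of the 10 genes on the x axis, the number of its regions with a peak in each library (y axis); blue bars are WT and orange bars Hemgn KO. The deeper libraries, WT replicate 1 and Hemgn KO replicate 2, had the tallest bars at Runx1, Meis1, Erg, Spi1, Cd34 and Etv6, Mecom had 3 in every library and Myct1 had 0.

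Spi1 encodes PU.1, the ETS factor of myeloid and B cells. It had 9 regions in and around a gene body of 33.4 kb, and its 22.5 regions per 100 kb were the highest density of the 10 genes, at the 97.3 percentile of all genes. Shared regions numbered 5. The highest lay at the high-coordinate end (chromosome 2, 91115007 to 91115648), with 70.7 and 65.1 in WT and 67.9 and 74.3 in KO. A region 14.36 kb inside the low-coordinate end (91096334 to 91098390) had 51.5 and 44.0 in WT and 47.4 and 43.2 in KO. The low-coordinate end itself (91082448 to 91083434) was weaker, and the WT libraries had 35.4 and 11.9 and the KO libraries 9.23 and 21.4. The genotypes overlapped at these 3 regions. Deeper in the gene, 2 regions were low in Hemgn KO replicate 1 alone. The region 19.24 kb from the low-coordinate end (91101339 to 91101907) had 65.2 and 47.2 in WT and 16.6 and 51.7 in KO. The region 26.02 kb from it (91108150 to 91108626) had 45.3 and 46.1 in WT and 15.4 and 41.1 in KO, with no overlap and a difference of -17.5 points, but the KO replicates were 25.7 points apart.

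Flt3 encodes the receptor tyrosine kinase of multipotent and lymphoid progenitors. It had 5 regions, 3 of them in all 4 libraries. The start region (chromosome 5, 147399971 to 147400648), whose upstream sequence is shown above with RUNX, ETS and E-box letters, had 68.3 and 29.0 in WT and 64.2 and 53.8 in KO. The region at -8.44 kb, upstream of the start (147408823 to 147409210) had 53.6 and 23.9 in WT and 48.4 and 56.3 in KO. WT replicate 2 was the lowest library at both. In the gene, 11.94 kb from the start (147388166 to 147388978), the WT libraries had 72.4 and 70.3 and the KO libraries 49.6 and 64.2. The genotypes did not overlap there, and the difference of -14.4 points was about as large as the 14.6 points between the KO replicates.

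Cd34 encodes a sialomucin on the surface of progenitors and endothelial cells. Its strongest regions lay outside the gene. A region 37.66 kb downstream of the start and beyond the end of the gene (chromosome 1, 194976072 to 194977196) had 96.0 and 95.0 in WT and 93.6 and 93.9 in KO, the highest of all 88 regions. Upstream, at -59.05 kb, a region (194879383 to 194880201) had 92.6 and 87.8 in WT and 80.6 and 91.0 in KO, with its 4 summits within 1 bp of each other. The start region (194938644 to 194939307) was far lower and had no peak in WT replicate 2, where the next peak was 36.8 kb away; the other libraries had 53.6, 67.7 and 41.1. Downstream by 46.76 kb (194985310 to 194986011), the WT libraries had 57.4 and 38.7 and the KO libraries 25.9 and 22.0. This was the widest gap between the genotypes among the shared regions of the 10 genes, a difference of -24.1 points, with 18.7 points between the WT and 3.86 between the KO replicates.

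Myct1 encodes a membrane protein of endothelial and blood stem cells. No library had a peak assigned to it. The nearest summits lay at -43.17, -43.08, -43.21 and -43.17 kb from its start and were nearer to another gene. Genes with 0 regions made up 25.2% of all protein-coding genes. A list of peaks shows only signal past its threshold, so accessibility at Myct1 was not detectable at this depth.

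The number of peaks at the 10 genes did not separate the genotypes. Per 10000 listed peaks, the 10 genes had 15.7 and 12.6 in WT and 14.4 and 16.0 in KO. The WT mean was 14.1 ± 2.19 and the KO mean 15.2 ± 1.16 (SD, n = 2), a difference of 1.09 (exact two-sided permutation test, p = 0.667, smallest possible 0.33). Within each genotype the deeper library had more, and without WT replicate 2 the sign turned, to -0.453.

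More regions were split between the deeper and the shallower libraries than between the genotypes. Of the 88 regions, 36 were found in all 4 libraries (40.9%, against 49.7% of all regions), 1 was WT-only (Hlf; 2.2% of all regions) and 1 was KO-only (Runx1; 1.41% of all regions). By contrast, 12 of 88 had peaks in WT replicate 1 and Hemgn KO replicate 2 and in neither shallower library, where all regions had 7.22%. These 12 lay at Runx1, Meis1, Hlf, Erg, Spi1 and Etv6. Regions in a single library numbered 23 (25.0% of all regions were in a single library), of which 12 were in WT replicate 1 and 8 in Hemgn KO replicate 2 (51.8% and 28.4% of all such regions). WT replicate 2, with the lowest background, had 0 regions of its own, as 1.86% of all regions were. It was the only library lacking in 9 of the 13 regions found in 3 libraries (49.0% over all regions).

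**Figure D3:**
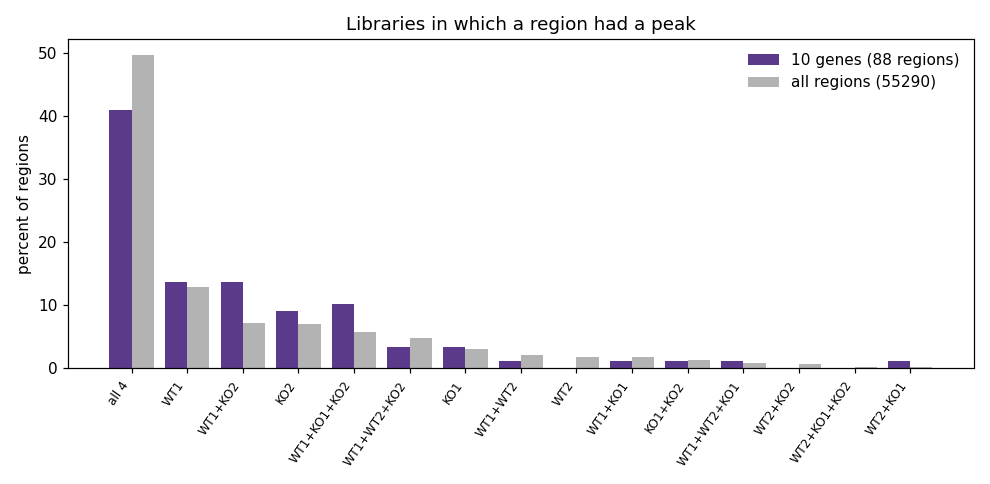
Bars give the percent of regions (y axis) with a peak in exactly the named libraries (x axis; WT1 to KO2 are WT and Hemgn KO replicates 1 and 2), purple for the 88 regions of the 10 genes and grey for all 55290. The bars for WT1 with KO2 stand over those of the genotype pairs, WT1 with WT2 and KO1 with KO2, in both sets.

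Among the 36 shared regions of the 10 genes, the KO mean percentile was lower than the WT mean in 26 (72.2%), against 56.3% of all 27473 shared regions. The median difference of KO minus WT was -2.12 percentile points for the 10 genes and -0.578 for all shared regions. Both KO values lay below both WT values in 9 of the 36, at Runx1 (2 regions), Cd34 (2), Meis1, Mecom, Hlf, Spi1 and Flt3, where 13.6% of all shared regions did so. At 1 of these, the Runx1 region 1.62 kb from the proximal start, the gap was 0.146 points, at the foot of the lists. Both KO values lay above in 1 of the 36, at Etv6, where 9.98% of all shared regions did so. No test was run region by region. The count was sensitive to the measure: with percentiles of −log10 p in place of fold, 4 regions had KO below (8.46% of all) and 3 above (7.09%). With lists cut to equal length by fold, 8 of 32 shared regions were below (20.1% of all) and 4 above (19.0%). Cut to equal length by −log10 q, 10 of 33 were below (20.7% of all) and 4 above (18.7%). Leaving out a library loosens the criterion and moves the background as well. Without WT replicate 1, 10 of 36 regions were below (15.6% of all) and 13 above (50.8%). Without WT replicate 2, 25 of 44 were below (61.4% of all) and 4 above (13.1%). Without Hemgn KO replicate 1, 13 of 39 were below (18.9% of all) and 9 above (29.1%). Without Hemgn KO replicate 2, 20 of 37 were below (43.2% of all) and 5 above (15.2%).

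**Figure D4:**
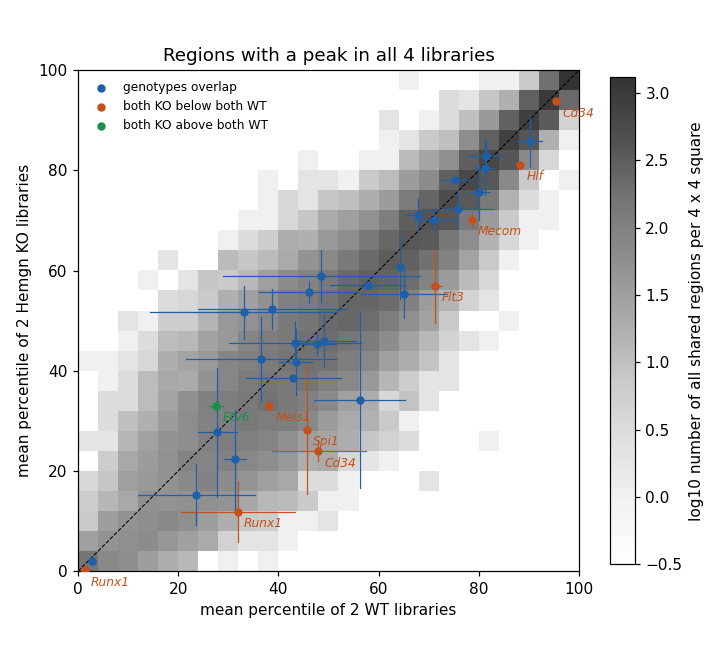
Points are the 36 regions of the 10 genes with a peak in all 4 libraries, at the mean percentile of the WT libraries (x axis) and of the Hemgn KO libraries (y axis), with lines to the values of the single libraries; grey squares count all shared regions on a log10 scale. The 9 orange points lie below the dashed line of equality without overlap of the genotypes, and the green point, at Etv6, lies above it.

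The summits of the libraries spanned a median of 101.0 bp in the 36 shared regions, against 87.0 bp over all shared regions, and stood within 100 bp in 18 of 36, against 54.9%.

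Other genes of the stem and progenitor programme, a list of 30 that includes Gata2, Kit, Myb, Tal1, Lmo2 and Gfi1b, had a start peak in all 4 libraries at 21 of 30 genes (58.2% of all genes). Their 237 regions included 105 shared ones, of which 19 had both KO values below both WT values and 5 the reverse (18.1% and 4.76%, against 13.6% and 9.98% of all shared regions), with a median difference of -3.23 points. Prdm16, a zinc finger gene related to Mecom and chosen here after its values were seen, gave 6 of the 19. WT-only regions of the list were 4, at Mllt3 (2), Ikzf1 and Zeb2, and KO-only regions 2, at Fli1 and Zeb2 (2.2% and 1.41% of all regions). The erythroid markers, with 37 shared regions, had 5 below and 3 above (13.6% and 9.98% of all shared regions) and a median of -0.909 points. Hemgn, the deleted gene, is on this erythroid list. The lists share libraries, overlap at Tal1, and differ in size, and the difference between them was not tested.

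Markers of other cell types varied between the libraries as well. Start peaks were found at 6, 4, 5 and 7 of 10 endothelial genes, at 6, 5, 4 and 4 of 8 hepatocyte genes, at 5, 3, 4 and 4 of 8 megakaryocyte genes and at 4, 1, 1 and 4 of 8 macrophage genes, each in the order WT replicates 1 and 2 and KO replicates 1 and 2. B lymphoid genes had 1, 1, 3 and 3 of 8, with Cd79b and Blnk in the KO libraries only and Pax5 and Cd79a without a start peak in any library. Granulocyte genes had 3, 2, 1 and 2 of 8, with S100a8 and Camp in the WT libraries only. The granulocyte start peaks of the KO libraries were at Ltf and Mpo. Ltf or Mpo also held the remaining start peak of WT replicate 1. Elane, Ngp, Prtn3 and S100a9 had no start peak in any library. Pecam1, among the endothelial genes, had a start peak in the KO libraries only. WT-only and KO-only regions, respectively, numbered 4 and 0 of 40 at hepatocyte genes, the 4 at Alb, Afp, Ahsg and Fgg. They numbered 0 and 1 of 43 at endothelial, 0 and 1 of 29 at megakaryocyte and 0 and 2 of 20 at B lymphoid genes. Granulocyte genes had 2 and 0 of 12 and macrophage genes 1 and 0 of 12, where all regions had 2.2% and 1.41%. Shared regions with both KO values below and above, respectively, numbered 1 and 2 of 17 at endothelial, 1 and 2 of 12 at megakaryocyte, 0 and 1 of 11 at B lymphoid, 0 and 3 of 13 at hepatocyte, 1 and 0 of 3 at granulocyte and 0 and 0 of 1 at macrophage genes, where all shared regions had 13.6% and 9.98%. Erg, Cd34, Runx1 and Meis1 are also expressed by endothelial cells or megakaryocytes, and the part of these cells in the values of the 10 genes was not tested.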

How the data were processed

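Accessibility was measured by ATAC-seq in 4 libraries, 2 WT and 2 Hemgn KO, grouped by the sample titles. The authors deposited 1 peak list per library in narrowPeak layout, with none pooled. Tools named, without roles, per the submitters' processing notes are MACS2 2.2.7.1, Picard 2.21.4, SAMtools 1.9 and Bowtie2 2.3.5, with settings and build not given in the sources used here. As the values show, each deposited score equals the whole part of 10 times the −log10 q. The deposited fold is the authors' enrichment ratio at the summit over the background of that library or, where higher, of the surroundings, and −log10 p and −log10 q were deposited by the authors for each peak.

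Peaks of the assembled chromosomes were merged across lists at 1 bp of overlap (pandas 2.3.3, numpy 2.4.6). A region belonged to a gene when at least 1 of its summits did. Gene bodies and starts came from RefSeq tables of GRCm38.p6 (21774 protein-coding genes after other scaffolds were left out). As a check of the build, 26.8% to 34.5% of a list's summits were within 1 kb of listed starts, and 3.87% to 4.71% after shifts of 5000, 20000 and 50000 bp. The gene table has no exons, so regions are placed only inside or outside a gene. A region's percentile is the highest among its peaks in a library, ranked by fold in that list. Fragments and background were solved from fold and −log10 p (scipy 1.17.1) for peaks with −log10 p under 60. The assignment, merging and pattern steps were tested on simulated data. Alternatives covered the q threshold, list length, overlap, reach, percentile measure, left-out libraries and the replicate block.

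The 10 genes, the lists and the tests were chosen with earlier results of these data known. Named regions are, per gene, the highest at and away from the start, every exclusive region and the widest gaps between genotypes; a few others were added after their values were seen. Library rates were compared by an exact permutation test.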

Additional observations from a re-analysis of the deposited data

How the results depend on the processing

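The 36 shared regions ranged from 25 to 44 and the 7 genes with a start peak in every library from 6 to 8 over all alternatives. The difference of peak rate, KO minus WT, kept its sign in 11 of 12 alternatives and ranged from -0.453 to 2.64 when single libraries were left out. The replicate block, in same-numbered or crossed pairs, is among the 12 but returns the same difference of means by construction, so it cannot change the sign. Exclusive regions were few and moved easily. WT-only regions were 0 at a q of at most 0.001 and with lists of equal length by fold (2.25% and 2.23% of all regions). KO-only regions were 3 with lists of equal length by fold or by −log10 q (2.25% and 2.4% of all regions). Leaving out a library gave 1 to 13 WT-only and 1 to 10 KO-only regions, since a region is then asked of fewer libraries (3.19% to 15.5% and 1.73% to 8.83% of all regions). Shared regions with KO above numbered 4 with lists of equal length by fold or by −log10 q (19.0% and 18.7% of all). Those with KO below numbered 8 of 32 and 10 of 33 in these settings (20.1% and 20.7% of all). With percentiles of −log10 p, 3 were above and 4 below (7.09% and 8.46% of all). Without single libraries the ranges were 4 to 13 above (13.1% to 50.8% of all) and 10 to 25 below (15.6% to 61.4%). The cause was not tested. With same-numbered libraries as a replicate block, 3 regions were above and 12 below in both pairs (13.9% and 17.2% of all), and the peak rate difference stayed at 1.09 (exact sign-flip permutation p = 1.0, smallest possible 0.5). Crossed pairs, added after seeing the data because replicate differences of WT and KO were negatively correlated (r = -0.202 over 27473 shared regions), gave 5 above and 16 below (20.5% and 33.7% of all). Depth sets the weakest peak a list can hold, from 9 fragments in the shallower libraries to 15 in WT replicate 1, so absence from a list is not absence of signal.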
